A study of Mus musculus with 2 samples.

Results

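The microRNA genes Mir6896 to Mir7094 are a run of consecutively numbered mouse genes that entered the microRNA catalogue late, nearly all of them short hairpins inside introns of protein-coding genes. Members were chosen by symbol alone: every counted gene whose Ensembl identifier maps in GENCODE to a symbol from Mir6896 to Mir7094, suffixes allowed. This gave 178 members of the 1973 miRNA genes counted, all with an annotated hairpin. The annotation lists 201 such symbols, and the other 23 have no row in the tables and were not analysed here.

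Both libraries were made from limb tissue of mouse embryos, strain B6NCrl, taken at embryonic day 13.5 as healthy tissue with both sexes mixed; the labels name no mutation or treatment. MicroRNA sequencing was run on total RNA with a size limit of under 30 per the labels, in 1 group of 2 biological replicates. The 2 replicates are separate biosamples under 1 donor label, and how many embryos each held is not given in the labels. P-values between them compare these 2 libraries only and cover counting error, not variation between replicates. Replicate 1 held 5927321 sense counts in genes and replicate 2 held 6003632, so 1 count was worth 0.169 and 0.167 CPM (counts in a total scaled to 1000000). A count of 0 allowed up to 3 counts, which is 0.506 CPM in replicate 1 and 0.4997 CPM in replicate 2, counting error only. Of 14 marker miRNAs listed, 11 were detected. Those for cell types of the limb (cartilage, muscle, endothelium, epithelium and Hox-patterned tissue) averaged from 75.3 CPM for Mir133b to 75238 CPM for Mir196b, with Mir140 of cartilage at 46627 CPM. Of markers of other tissues, liver Mir122 was also detected, with 396 and 484 counts (73.7 CPM, above every member), and so was heart Mir208a, with 29 and 52 counts (6.78 CPM). The 3 copies of Mir124a, the neuronal miRNA, stood at 0, but they share sequence with each other and reads that map to several places were not counted.

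Most miRNAs are cut from their primary transcript by the Microprocessor, Drosha with DGCR8, and then by Dicer. Mirtrons skip the first cut: a short intron is spliced out, its lariat is debranched, and the freed intron folds into a hairpin that Dicer can use directly. In tailed mirtrons only one hairpin end lies at a splice site, and the rest of the intron is a tail that has to be trimmed away. Introns begin with GU and end with AG after a pyrimidine-rich tract, so a hairpin that lies at the end of an intron carries that tract in its 3′ arm. Whether a given hairpin was made by splicing cannot be read from counts, and no splicing or Drosha measurement was used here.

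The hairpins of the 7 detected members, those reaching 10 sense counts in both libraries, are shown first because they hold 45.6% of all member counts in replicate 1 and 46.9% in replicate 2. They are written 5′ to 3′ from the GENCODE transcripts, and capitals mark the first 2 and the last 2 bases of the host intron where the hairpin reaches them.
Mir6944 in Dbn1: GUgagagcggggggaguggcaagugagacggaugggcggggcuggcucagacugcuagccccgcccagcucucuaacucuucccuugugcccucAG
Mir7018 in Hspg2: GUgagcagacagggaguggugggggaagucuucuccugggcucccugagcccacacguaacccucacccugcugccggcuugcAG
Mir6958 in Dennd6b: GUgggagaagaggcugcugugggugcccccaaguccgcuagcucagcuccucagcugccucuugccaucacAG
Mir7083 in Dock6: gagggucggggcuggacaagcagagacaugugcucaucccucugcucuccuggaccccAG
Mir6951 in Azin1: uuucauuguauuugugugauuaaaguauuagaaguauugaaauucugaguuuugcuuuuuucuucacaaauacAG
Mir6900 in Ndufa10: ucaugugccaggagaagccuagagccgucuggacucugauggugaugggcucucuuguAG
Mir7025 in Pdgfra: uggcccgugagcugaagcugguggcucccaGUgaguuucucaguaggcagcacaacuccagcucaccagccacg
The first 3 are whole introns, from GU to AG. Mir7083, Mir6951 and Mir6900 end with the intron's AG but start inside it. Mir7025 alone lies across the other end of its intron, with 30 bases in the exon before the GU.

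The mature sequences of 6 of these 7 members are given by RefSeq (GRCm38.p6), and capitals mark the seed, bases 2 to 8, which pairs with targets. Only the 3′ arms are shown for the members that end at a splice site, since those arms hold the tract before the AG.
miR-6944-3p: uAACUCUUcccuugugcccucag
miR-7018-3p: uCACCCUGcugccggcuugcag
miR-6958-3p: uCAGCUGCcucuugccaucacag
miR-7083-3p: uCUGCUCUccuggaccccag
miR-6900-3p: uGGUGAUGggcucucuuguag
miR-7025-5p: cGUGAGCUgaagcugguggcuccc
miR-7025-3p: cAGCACAAcuccagcucaccag
All 5 of these 3′ arms from splice-site hairpins end in AG at the last base of the intron. miR-7025-3p also ends in AG, but 745 bases before the end of its intron.

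Members were low in the limb: together they held 614 sense counts in replicate 1 and 589 in replicate 2. That is 0.0104% and 0.00981% of the sense counts, a mean of 0.0101% ± 0.000388 (SD, n = 2). In bulk RNA, a low level in all cells and a higher level in a few cells cannot be told apart. The median member averaged 0.168 CPM, about 1 count per library, and the highest averaged 25.6 CPM. No member reached 100 CPM, 1 reached 10 CPM and 19 reached 1 CPM. Over all genes in the table the median was 0, and among the 372 detected genes it was 106 CPM.

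Detection depended on the count asked for. Only 7 of 178 members (3.93%) had 10 or more counts in each library, against 372 of 1973 genes (18.9%) over the whole table and 188 of 666 (28.2%) among the other genes in an intron on the host's strand. At 1 count in each library the members numbered 74 of 178 (41.6%), beside 570 of 1973 (28.9%) over the table and 257 of 666 (38.6%) among the other intronic genes. At 1 count in either library they were 118 of 178 (66.3%), and the other intronic genes 302 of 666 (45.3%). The members thus lay above the other intronic genes at the lowest minimum and far below them at the minimum of 10. Of the 118 members with a count, 44 had it in 1 library only, 19 in replicate 1 and 25 in replicate 2. The remaining 60 had 0 in both.

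**Figure D1:**
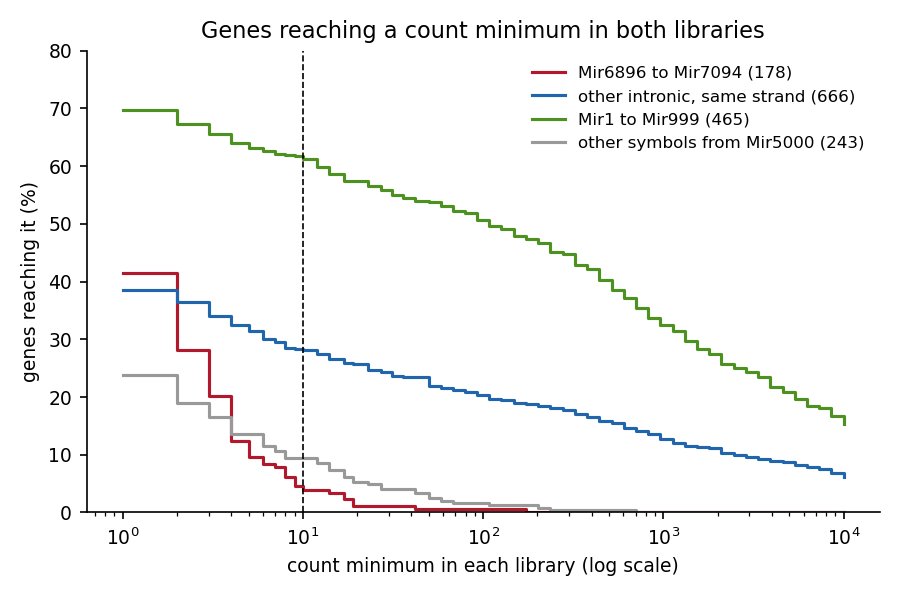
Share of genes (%, vertical axis) whose sense counts reach a minimum in both libraries (horizontal axis, log scale), for the members and 3 other sets of miRNA genes; the dashed line is the minimum of 10. The line of the members starts at 41.6%, above the other intronic genes at 38.6%, and falls to 3.93% at the dashed line, where the other intronic genes are at 28.2%.

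Shared sequence differed between these sets, and it bears on counting because only uniquely mapped reads enter a gene. Only 3 members (Mir6970, Mir7065 and Mir7094-2) have a stretch of at least 18 hairpin bases in common with some other annotated miRNA gene, and all 3 stood at 0 in both libraries. Among the 666 other intronic genes, 333 have one. The 333 that do not were detected in 140 cases (42.0%), had 1 or more counts in each library in 193 (58.0%), and had a count in either library in 222 (66.7%). Beside these, the members were lower at the first 2 minima and level at the last, 66.3%.

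Detection also differed with a gene's place in the numbering. Of the 465 symbols Mir1 to Mir999, 285 (61.3%) were detected. Of the 243 other symbols numbered from 5000 up, 23 (9.47%) were detected, 58 (23.9%) had a count in each library, and the highest averaged 111.5 CPM. These are descriptions with no test, since sets of genes are not replicates.

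Mir6944 was the most abundant member, with 150 counts in replicate 1 and 156 in replicate 2. The exact 95% Poisson intervals of the 2 counts, 127 to 176 and 132 to 182, overlap almost wholly. The level was 25.6 ± 0.48 CPM (SD, n = 2), rank 248 in the table. Its hairpin is the complete 96-base intron of Dbn1, which encodes the actin-binding protein drebrin, at chr13:55477681-55477776 on the minus strand (mm10). Without it, the share of sense counts held by the members is 0.00752% in place of 0.0101%.

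The other two detected whole introns were far lower. Mir7018 had 19 and 17 counts (3.02 ± 0.26 CPM), and is the 85-base intron of Hspg2, the gene of the basement membrane and cartilage proteoglycan perlecan, at chr4:137538286-137538370 on the plus strand (mm10, as for all positions here). Mir6958 had 17 and 15 counts (2.68 ± 0.26 CPM), and is the 73-base intron of Dennd6b, a DENN-domain gene of vesicle traffic, at chr15:89185465-89185537 on the minus strand. Mir6958 also overlaps an annotated exon of another transcript on that strand, and reads of the exon and of the intron cannot be told apart.

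The 3 detected members with only the 3′ end at a splice site lie in longer introns. Mir7083 had 44 and 40 counts (7.04 ± 0.54 CPM) and ranks next after Mir6944. It is a 60-base hairpin at the end of an 1833-base intron of Dock6, an exchange factor for Rac1 and Cdc42, at chr9:21809941-21810000 on the minus strand. Mir6951 had 23 and 18 counts (3.44 ± 0.62 CPM), at the end of a 1003-base intron of Azin1, an inhibitor of antizyme in polyamine control, at chr15:38490473-38490547 on the minus strand. Mir6900 had 12 and 16 counts (2.34 ± 0.45 CPM), at the end of a 2898-base intron of Ndufa10, a subunit of respiratory complex I, at chr1:92464483-92464542 on the minus strand. For these 3 members the excised intron is many times longer than the hairpin.

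Mir7025 was the one detected member with neither end at a splice site. It had 15 counts in replicate 1 and 14 in replicate 2 (2.43 ± 0.14 CPM), at chr5:75176831-75176904 on the plus strand in Pdgfra, the receptor for platelet-derived growth factor that marks much embryonic mesenchyme. Its annotated 5′ arm starts 25 bases before the intron, in the exon, and its 3′ arm starts 17 bases into the 784-base intron. As with Mir6958, reads of the exon and of the hairpin cannot be told apart.

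The ranking below Mir6944 and Mir7083 is not firm. The 95% intervals of Mir6951, 14.6 to 34.5 and 10.7 to 28.4 counts overlap that of Mir6900 in replicate 2, 9.15 to 26.0. The intervals of Mir7083, 32.0 to 59.1 and 28.6 to 54.5, overlap the interval of Mir6951 in replicate 1 but not in replicate 2, and lie below both intervals of Mir6944. By these intervals only Mir6944 stands clear of all the others.

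Members just outside the minimum had counts close to those just inside. Inside, by lowest count, were Mir6900 (12 and 16), Mir7025 (15 and 14), Mir6958 (17 and 15), Mir7018 (19 and 17) and Mir6951 (23 and 18). Outside were Mir6956 in Triobp, a gene of actin bundling (9 and 14), Mir6901 in the matrix gene Sned1 (8 and 13), Mir6945 in Pdlim7, a PDZ and LIM protein gene (10 and 8), and Mir6897 in Uggt1, the folding sensor of the endoplasmic reticulum (8 and 10). The next place was shared at a lowest count of 7 by Mir6991 in 2700081O15Rik (13 and 7), Mir7069 in Farsa, a tRNA synthetase gene (13 and 7), and Mir6975 in Ddx39b, an RNA helicase gene (7 and 12). In each library taken alone 13 members reached 10 counts, and 7 did so in both. In all, 10 members had a lowest count from 5 to 9.

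**Figure D2:**
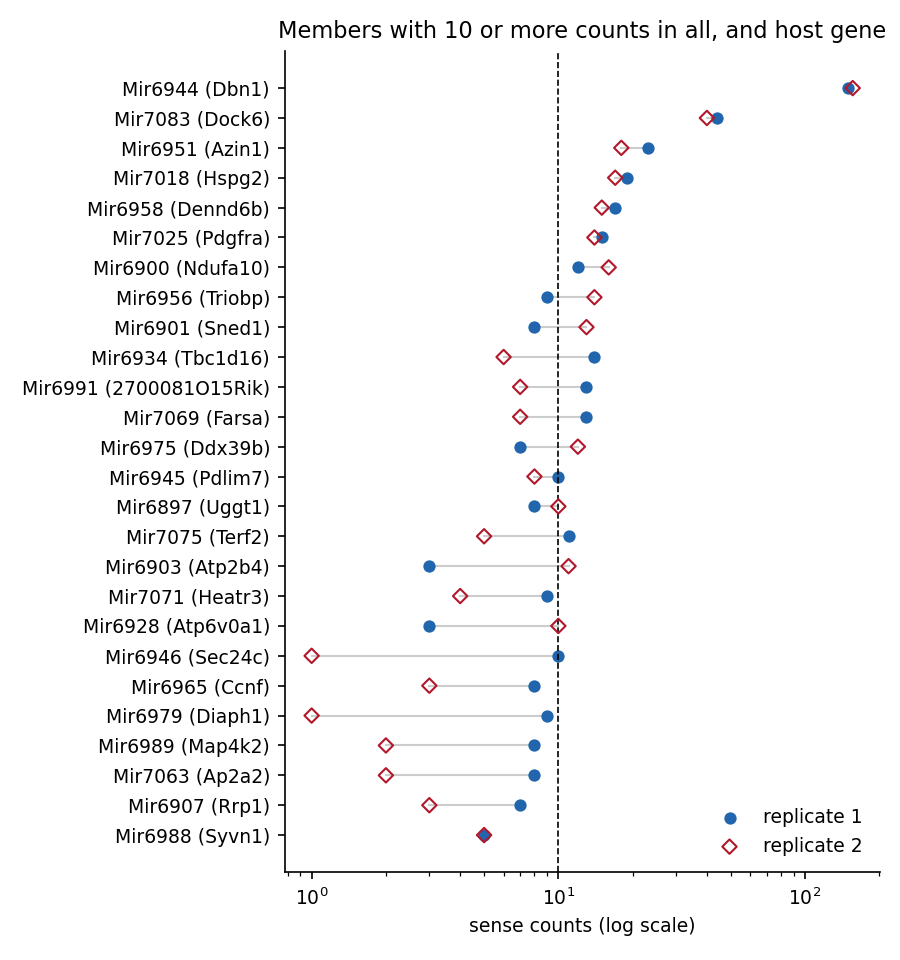
Sense counts (horizontal axis, log scale) in replicate 1 (filled circles) and replicate 2 (open diamonds) of the 26 members with 10 or more counts over both libraries, with the host gene in brackets; the dashed line is the minimum of 10. Mir6944 lies alone at 150 and 156, Mir7083 follows at 44 and 40, and the gap between the libraries is widest for Mir6946 (10 and 1) and Mir6979 (9 and 1).

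The 2 libraries were compared gene by gene over the whole table. A gene was called where the exact binomial test, with both tails counted, gave an adjusted p (Benjamini-Hochberg) under 0.05 and the absolute log2 ratio, with 0.5 counts added, was at least 1. The test covers counting error only. Of the 444 genes with 10 or more counts over both libraries, 179 had an exact binomial adjusted p under 0.05. With the minimum ratio, 15 (3.38%) were called, 4 higher and 11 lower in replicate 2. The members tested were 26, and 2 of them were called, both lower in replicate 2. Mir6946, in the intron of the vesicle coat gene Sec24c, had 10 counts against 1, a log2 ratio of -2.83 with an exact binomial adjusted p of 0.0174. Mir6979, in the formin gene Diaph1, had 9 counts against 1, a log2 ratio of -2.68 with an exact binomial adjusted p of 0.0306. With median-of-ratios size factors that adjusted p was 0.0548 and the call of Mir6979 ended. Both calls rest on a single low count and compare these libraries, not conditions.

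None of the 7 detected members was called, with exact binomial adjusted p from 0.61 for Mir6951 to 0.92 for Mir7025. The median absolute log2 ratio was 0.79 over the 26 members tested and 0.19 over all 444 genes, whose counts are mostly far higher. Some members below the detection minimum were uneven between the libraries without being called. Mir6903, in the calcium pump gene Atp2b4, had 3 and 11 counts (exact binomial adjusted p 0.123), and Mir6928, in the proton pump gene Atp6v0a1, had 3 and 10 (0.185). Mir6934, in Tbc1d16, went the other way with 14 and 6 counts (exact binomial adjusted p 0.157). At this depth no difference was detectable for these 3 members.

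**Figure D3:**
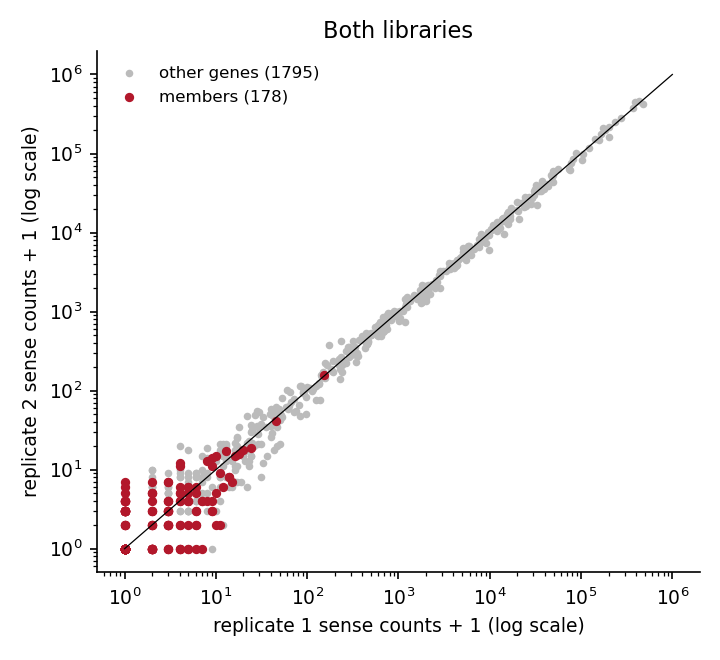
Sense counts plus 1 in replicate 1 (horizontal axis) and replicate 2 (vertical axis), both log scales, for the 178 members (red) and the 1795 other genes (grey); the line marks equal values. Members lie in the lower left corner, where the points scatter widely around the line, and Mir6944 at 150 and 156 is the highest.

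The members share a position that was part of the block's description from the start, although each member was chosen by symbol alone. A same-strand host gene was found for all 178, and for 177 of them the host is protein coding. The exception is Mir7094-2, in an immunoglobulin variable segment. Of the 178 hairpins, 169 lie wholly in an intron on the host's strand, and 39 overlap an annotated exon of some transcript on that strand. The hosts are 174 different genes on 19 chromosomes, so the symbols form a run in numbering only, not in the genome. Arap3, Cmip, Skiv2l and Srebf1 each host 2 members. In Skiv2l, an RNA helicase gene, Mir6971 had 4 and 4 counts and Mir6970, one of the 3 sharing sequence, had 0 and 0. In Srebf1, the gene of a sterol-response factor, Mir6921 had 0 and 3 counts and Mir6922 had 0 and 0.

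A hairpin end lay within 2 bases of a splice site of the host intron in 170 of 178 members (95.5%), against 29 of the 666 other same-strand intronic genes (4.35%). In 152 members only the 3′ end was there, in 14 both ends, in 4 only the 5′ end, and in 8 neither. The match was exact to the base at the 3′ end in 165 members and at the 5′ end in 18. The block was described beforehand as intronic and mostly made by splicing, so these positions describe the annotation and are not an independent result.

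**Figure D4:**
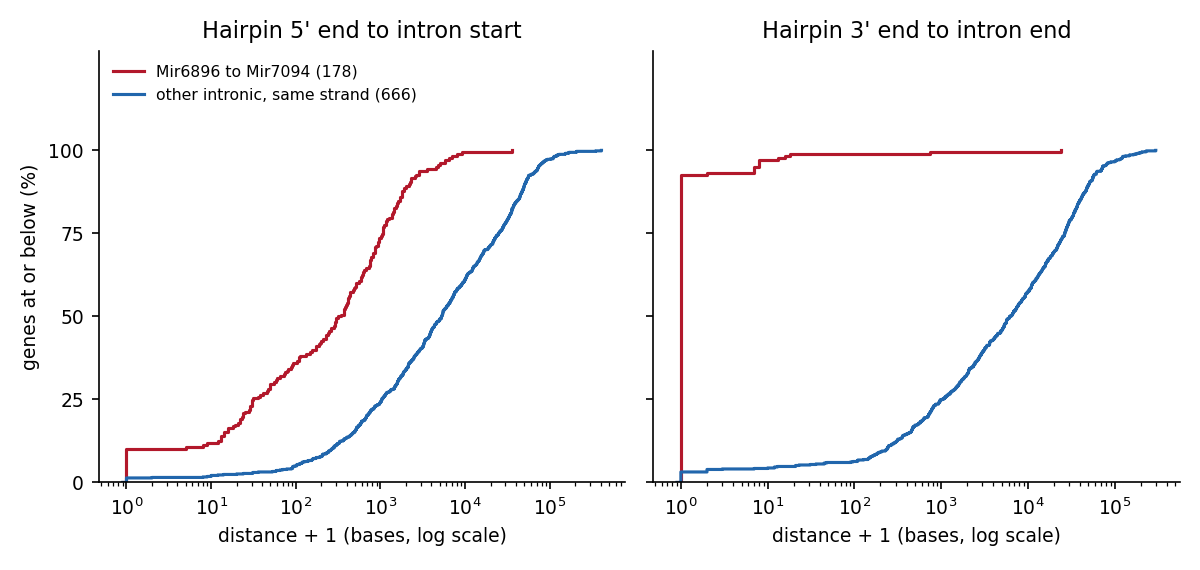
Cumulative share of genes (%, vertical axis) by the distance in bases, plus 1 (horizontal axis, log scale), from the hairpin's 5′ end to the intron start (left) and from its 3′ end to the intron end (right), for the 178 members and the 666 other same-strand intronic genes; ends beyond the intron count by their absolute distance. On the right, 165 members lie at a distance of 0, while only 29 of the other intronic genes have either end within 2 bases.

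The 14 whole-intron members were 67 to 137 bases long, with a median of 81. Of these 14, 13 start with GU and 14 end with AG; Mir7088 in Mst1 starts with GC. They held 201 counts in replicate 1 and 202 in replicate 2, which is 32.7% and 34.3% of the members' counts from 14 of 178 genes. Most of this was Mir6944: the other 13 held 51 and 46 counts, or 3.73 counts per gene and library. Mir7018 and Mir6958 led these, followed by Mir7060 in Fbrs (6 and 3), the longest of the block at 137 bases, and Mir7068 in Cherp (4 and 5). Mir6970, Mir6974, Mir7080 and Mir7088 stood at 0 in both libraries. In all, 3 of the 14 were detected and 7 had a count in each library.

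The 152 members with only the 3′ end at a splice site held 368 and 326 counts, 2.28 per gene and library. Of these, 3 were detected and 59 (38.8%) had a count in each library. Their introns had a median of 484.5 bases, and the stretch before the hairpin a median of 419.5 bases, with quartiles of 70 and 1119 and a maximum of 36205. That stretch was under 50 bases in 34 members and over 1000 in 44. Counts per gene were close in short and long introns: the 47 with an intron under 200 bases had 2.23 counts per gene and 20 (42.6%) with a count in each library, and the 105 in longer introns had 2.30 counts per gene and 39 (37.1%). The 3 detected members were all in the longer introns, which held 255 and 229 counts together. Of these counts Mir7083 had 44 and 40, Mir6951 had 23 and 18, and Mir6900 had 12 and 16. The 2.30 counts per gene thus lean on these 3 members.

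The 4 members with only the 5′ end at a splice site were Mir6927, Mir6936, Mir6973b and Mir6977, in introns of 66 to 88 bases. All 4 start with GU, and together they held 6 and 10 counts. Mir6936, in the sirtuin gene Sirt7, had the highest GC content of the block, 81.5%, with 2 and 6 counts. The 8 with neither end there held 39 and 51 counts, a total led by Mir7025 and Mir6901. In 6 of these 8 the hairpin runs 6 or 7 bases past the intron end into the exon, and 3 of the 5 annotated 3′ arms in this class still end at the last base of the intron. At a distance of up to 10 bases, 176 of the 178 hairpins lay at a splice site.

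Member hairpins were short and rich in GC. The median length was 66 bases (quartiles 62 and 72, range 52 to 137), against 90 (78 and 109) in the other same-strand intronic genes and 84 in Mir1 to Mir999. The median GC content was 57.8% (quartiles 53.3% and 62.8%), against 48.3% (40.5% and 55.7%) in the other intronic genes and 46.7% in Mir1 to Mir999. Predicted folding energy had a median of -27.1 kcal/mol, and per base of -0.40, beside -0.398 per base in the other intronic genes. Per base, the short member hairpins were therefore predicted to fold about as firmly as the longer ones.

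The median GC content was somewhat higher in the detected members. The 7 detected members had a median GC content of 63.0% and a length of 74 bases, the 111 with a count but not detected 58.3% and 66 bases, and the 60 at 0 in both 57.3% and 66 bases. Mir6951 goes against this order, with the lowest GC content of all 178, 25.3%, and the third highest level. So does Mir6900, detected with 55.0%. Of the 7 detected members 3 are whole introns, a class with a median GC content of 62.8%. The 152 members with only the 3′ end at a splice site had 57.4%. Whether GC content goes with detection apart from class was not tested. Mir7071 in Heatr3 had 72.5% and 9 and 4 counts, below the detection minimum.

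**Figure D5:**
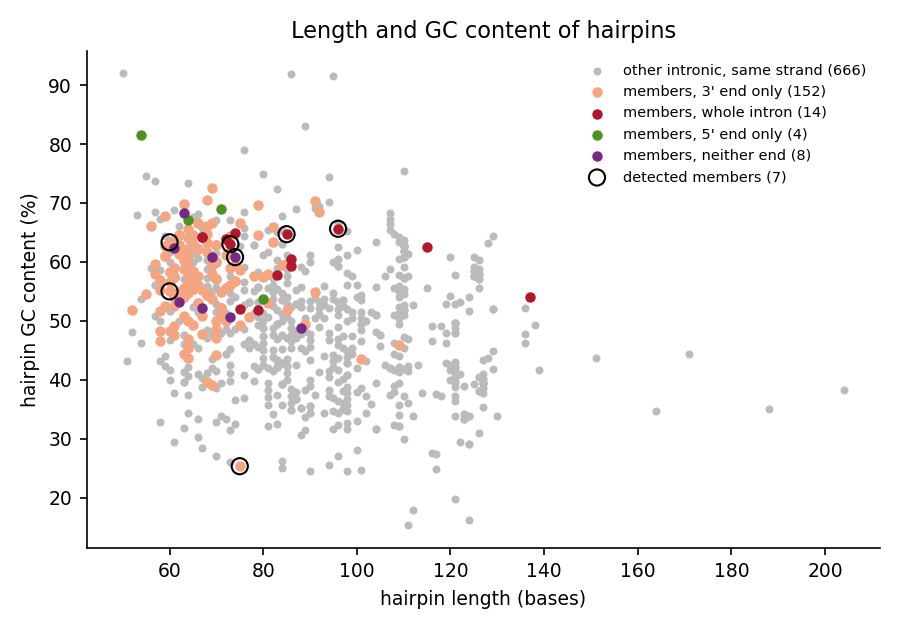
Hairpin GC content (%, vertical axis) against length (bases, horizontal axis) for members by class (coloured), detected members (ringed) and the 666 other same-strand intronic genes (grey). The members have a median of 66 bases and 57.8% GC, low in length and high in GC among the grey points, and Mir6951 lies alone among the members at 25.3%.

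Base composition was uneven along the hairpin. The first 20 bases had a median G content of 45%, and the last 20 a median pyrimidine content of 70%, against 30% and 50% in the other intronic genes. The last 2 bases were AG in 165 members (92.7%), against 61 (9.16%) in the other intronic genes. The first 2 were GU in 31 (17.4%). The 41 genes outside the block with a hairpin end at a splice site had the same medians, 45% and 70%, with 67 bases and 57.1% GC. These medians were thus close inside and outside the block. The end bases were less alike: of these 41 genes, 21 (51.2%) end in AG, a lower share than in the members. GU starts 10 (24.4%) of them.

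RefSeq gave hairpins for 161 members, all 161 identical to GENCODE, and mature sequences for 163, in all 157 5′ arms and 155 3′ arms. Both arms had a median length of 22 bases. The 5′ arms had a median G content of 45.5% and pyrimidine content of 31.8%, against 27.3% and 50% in the 550 5′ arms outside the block. The 3′ arms had a median pyrimidine content of 71.4%, against 54.5% in the 554 outside. Of the 155 3′ arms, 121 (78.1%) end in AG, against 61 (11.0%) outside, and 119 end exactly at the intron's last base. These are medians and not every member has them: miR-6900-3p is 52.4% pyrimidine and miR-7025-5p is 50%. The counts are per gene and do not say which arm was read.

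Most seeds occurred in 1 member. The 312 mature sequences held 287 different seeds, and 21 seeds occurred in more than 1 member. One of these, CACCCUG, is shared by 3 members that all lie at splice sites and is found in no gene outside the block. It is the seed of miR-7018-3p above and of 2 others, shown to compare the bases after the seed.
miR-7023-3p: uCACCCUGucugcgccccucag
miR-7068-3p: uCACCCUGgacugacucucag
Mir7018 had 19 and 17 counts, Mir7068 had 4 and 5, and Mir7023, in the kinase gene Pik3cd, had 0 and 0. Each of the 3 matures ends in CAG.

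Outside the block, 39 seeds also occurred, and 8 of them in genes of at least 100 CPM. Through them 9 members share a seed with an abundant gene. Mir6932 and Mir7039 share one with an arm of Mir26a-2 and Mir26b (24862 CPM for the higher of the 2), Mir7014 with Mir130b (7061 CPM), Mir7016 with Mir149 (6302 CPM) and Mir7069 with Mir18 (5542 CPM). Mir7069 had 20 counts over both libraries, and the other 4 had from 0 to 7. Among detected members, Mir6958 shares the seed of its 5′ arm with Mir30c-1 and Mir30c-2, at most 57.7 CPM. The abundant genes' counts are not split by arm, so these levels are not those of the shared seed itself.

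Genes outside the block that were listed as bypassing the Microprocessor give a scale for the members, for which a bypass was not tested. Of 5 such genes listed, 4 were detected. Mir877, the whole 85-base intron of Abcf1 and a classical mirtron, had 223 and 219 counts (37.1 ± 0.81 CPM), somewhat above Mir6944. Mir702, at a splice site in Plod3, had 116 and 105 counts (18.5 ± 1.47 CPM), somewhat below Mir6944. The hairpin of Mir702 overlaps an annotated exon on its strand, and reads of the exon were not told apart. Mir1224, another whole intron of 85 bases, had 5 and 3 counts, within the range of the undetected members. Mir320 and Mir484 are made from capped transcript starts without splicing, and stood at 661 ± 14.6 and 2353 ± 57.9 CPM. Mir6944, at 25.6 CPM, thus lay between Mir877 and Mir702, and the other members lay below both.

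Over all 41 genes outside the block with a hairpin end at a splice site, 11 (26.8%) were detected and 20 (48.8%) had a count in each library. Of the 8 whole introns among them, 3 were detected: Mir3102 in Arhgef17 (67.6 ± 7.09 CPM), Mir1981 in Marc2 (52.3 ± 7.82 CPM) and Mir877, all above Mir6944. With 1 end at a splice site in Mirg, 3 more were above Mir6944. Mir369 and Mir382 were the highest of all 41, at 5735 ± 175 and 4152 ± 104 CPM. Whether splicing makes these hairpins of Mirg was not tested, and an end at a splice site does not say so. Mir668, with its 5′ end at a splice site in a 92-base intron, stood at 34.4 ± 8.61 CPM. Of the 170 members at splice sites, 6 (3.53%) were detected and 68 (40.0%) had a count in each library, given as a description with no test. A chosen list of 30 intronic miRNAs of the canonical kind stood higher. Of the 29 counted, 28 were detected, the median was 264 CPM, and none lies at a splice site. That scale belongs to the list: of all 637 other intronic genes with no end at a splice site, 182 (28.6%) were detected. Their median was 0 CPM. The most abundant intronic genes were Mir196b in Hoxa9 (75238 ± 6154 CPM), Mir335 in the imprinted gene Mest (75047 ± 2156 CPM) and Mir99a in Mir99ahg (62771 ± 673 CPM). The hosts' own transcripts were not measured here, so the levels cannot be set against how much intron was made.

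Antisense reads over the members were nearly absent. There were 2 in replicate 1, 1 each over Mir6993 and Mir6916, and 1 in replicate 2 over Mir7036b. No member had 10 antisense counts in either library, so the low member counts are almost wholly on the annotated strand.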

How the data were processed

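For each library the authors deposited whole-number read counts per miRNA gene, in 3 columns taken from their layout as either strand, sense and antisense. No header names these columns. In all 1973 rows the first equals the sum of the others. The labels give the build mm10, and deposited text names GENCODE release 4 for the annotation; the sources used here give no aligner or counting program. Lines naming no gene were left out of totals: 17.2% and 18.6% of 12407140 and 12657170 reads were unmapped, 30.8% and 29.5% mapped to several places, and 4.24% and 4.48% lay on the sense strand of no gene.

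CPM is sense counts divided by the library's sense counts in genes and multiplied by 1000000, not divided by hairpin length. Symbols matched for 1894 of 1973 identifiers in GENCODE release 21 (GRCm38, the same build), which also gave hosts, introns and hairpins. A splice site match allowed 2 bases. Folding used RNAfold (ViennaRNA 2.7.2). The library test was the two-sided exact binomial test (scipy 1.17.1, Python 3.11.15), checked on simulated counts. TMM (edgeR 4.0.16) and median-of-ratios (DESeq2 1.42.0) factors, other minima, denominators and distances were the alternatives. Intervals are exact 95% Poisson intervals of a count; no molecular identifiers are given, so they cover counting error only.

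The members, lists and tests were chosen with earlier results of these data known. The text names each detected member, those called between libraries, the 5 nearest to each side of the detection minimum (7 outside, for ties), detected genes of the Microprocessor-independent list and the 3 most abundant other intronic genes; further members were named after their values were seen.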

Additional observations from a re-analysis of the deposited data

How the results depend on the processing

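The number of detected members depended on the minimum: 74 at 1 count in each library, 17 at 5, 2 at 20 and 118 at 1 count in either library, and 13 to 13 without replicate 1 or without replicate 2, where fewer libraries have to pass. Counting both strands, or leaving out genes that share 18 or 22 bases, left 7. These settings could not change that number: the 3 members sharing such bases stood at 0. The members' antisense reads, 2 and 1, lay over none near the minimum. The share of sense counts held by the members was 0.004801% with all reads as the denominator and 0.00752% without Mir6944. With median-of-ratios size factors 1 member was called between the libraries, Mir6946 (exact binomial adjusted p 0.0321). In all, 19 values from alternatives kept their direction and size, those that left 7 included; among them were 169 to 176 hairpins at a splice site for distances of 0 to 10 bases, 168 or 169 members in an intron and a median GC content of 57.7% to 57.8%. No paired analysis was possible because the series has 1 group. Depth limits every level below about 10 counts, and members at 0 are taken only to lie below about 0.5 CPM, the set limit of 3 counts. That limit does not hold for Mir6970, Mir7065 and Mir7094-2, which share sequence, since reads that map to several places were not counted. Shared sequence was looked for only among annotated miRNA genes, not over the genome. For the other members at 0 the limit therefore assumes that their reads map to 1 place.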
